A study of Mus musculus with 4 samples.

Results

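The cytochrome P450 genes were examined in whole kidneys of C57BL/6 mice with and without long-standing glomerulonephritis (GN), in which the glomeruli that filter the blood are inflamed. Members were the genes whose symbol is Cyp followed by digits, a letter and digits, with Cyp4a10 and Cyp4a14 left out, and 60 of the 12394 genes with a singly named probe set met this rule. They fall into 29 subfamilies, of which 22 had 1 member here. All animals were labelled male and 17 weeks old and received intraperitoneal injections for 6 weeks. The Saline+Water and Saline+Captopril groups received 0.15 M NaCl, and the GN+Water and GN+Captopril groups received 10 mg of horse spleen apoferritin 5 days a week with 100 µg of LPS, a bacterial adjuvant, 3 times a week. Both captopril groups drank captopril, an inhibitor of angiotensin converting enzyme, at 100 mg/kg/day, and kidneys were taken after 9 weeks. The labels give 6 mice per group but 1 array per group, and do not say whether an array held RNA of 1 mouse or of a pool. No value below therefore has a replicate check, an error or a test. In whole kidney, fewer cells of a type and less RNA per cell cannot be told apart.

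Cytochrome P450 enzymes are haem proteins that insert 1 atom of oxygen into a substrate, with electrons passed on from NADPH by a reductase in the endoplasmic reticulum or by ferredoxin in mitochondria. In the kidney they turn arachidonic acid into hydroxylated and epoxidised products that act on tubular transport and vessel tone, activate and degrade vitamin D, and oxidise drugs and steroids. Many of them are proximal tubule genes. Several P450 genes of the mouse kidney, among them Cyp2e1, Cyp4b1 and Cyp7b1, are known from other work to differ between the sexes and to depend on androgen.

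A group of 6 members separated 1 array from the others, each being at least 2-fold lower on it. The sequence before their start sites is shown first because all 6 were low on the same array. RefSeq promoter entries of build GRCm38.p6 were found for 45 of the 60 members and for 4 of these 6, with none for Cyp7b1 and Cyp2d12. The 250 bases before the start are given 5′ to 3′ for these 4, and for Cyp2j5, which lies in the same gene cluster as Cyp2j13 with Cyp2j6 and Cyp2j9 between them and was not 2-fold apart in any comparison by its brighter probe set. Capitals mark matches to TGTTCT (the half-site bound by the androgen and glucocorticoid receptors, both strands), TTCNNNGAA (the STAT element, both strands), GTTAAT (an HNF1 half-site, both strands) or TATAAA (the TATA box, gene strand only). Cyp2j13 is at chr4:96077541-96077790 on the minus strand, Cyp2e1 at chr7:140763569-140763818 on the plus strand, Cyp4b1 at chr4:115647722-115647971 on the minus strand, Cyp2d9 at chr15:82452127-82452376 on the plus strand and Cyp2j5 at chr4:96664120-96664369 on the minus strand.
Cyp2j13: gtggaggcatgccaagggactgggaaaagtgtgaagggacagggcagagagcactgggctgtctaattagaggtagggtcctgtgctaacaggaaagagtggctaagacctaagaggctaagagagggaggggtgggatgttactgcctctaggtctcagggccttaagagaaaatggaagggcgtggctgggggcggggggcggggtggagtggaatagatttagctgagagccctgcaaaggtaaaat
Cyp2e1: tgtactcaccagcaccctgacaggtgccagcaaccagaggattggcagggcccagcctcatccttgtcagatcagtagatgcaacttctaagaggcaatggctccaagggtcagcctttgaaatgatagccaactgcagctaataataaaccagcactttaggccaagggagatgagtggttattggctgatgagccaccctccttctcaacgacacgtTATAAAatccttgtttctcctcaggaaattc
Cyp4b1: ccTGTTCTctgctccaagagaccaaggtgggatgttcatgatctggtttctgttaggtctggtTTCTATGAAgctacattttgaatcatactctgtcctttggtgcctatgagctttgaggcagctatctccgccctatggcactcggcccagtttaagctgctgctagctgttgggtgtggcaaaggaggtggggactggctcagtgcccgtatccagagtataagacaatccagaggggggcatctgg
Cyp2d9: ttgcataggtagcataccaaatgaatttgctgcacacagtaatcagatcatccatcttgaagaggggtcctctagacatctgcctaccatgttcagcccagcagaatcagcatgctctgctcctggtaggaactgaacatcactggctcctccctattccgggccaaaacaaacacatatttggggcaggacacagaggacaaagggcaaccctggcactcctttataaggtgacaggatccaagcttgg
Cyp2j5: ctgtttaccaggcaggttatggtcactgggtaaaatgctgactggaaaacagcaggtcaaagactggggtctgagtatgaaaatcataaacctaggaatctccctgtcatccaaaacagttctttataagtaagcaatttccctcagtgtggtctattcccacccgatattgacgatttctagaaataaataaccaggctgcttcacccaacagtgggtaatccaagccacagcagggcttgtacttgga

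Among these 5 windows, Cyp4b1 held TGTTCT from 248 to 243 bases before the start and a STAT element, TTCTATGAA, from 187 to 179. Cyp2e1 held TATAAA from 31 to 26 bases before the start, and the other 3 windows held none of the 4 motifs. Over all 32851 promoter windows of this length, TGTTCT was present in 16.1%, against 9 of 45 members. The STAT element was present in 7.02% of all windows and 2 of 45 members, and GTTAAT in 6.43% and 3 of 45. TATAAA was present in 7.59% of all windows and in 12 of 45 members (26.7%), including Cyp1a1, Cyp1a2, Cyp2c29, Cyp2c55 and Cyp3a11. These are letter matches in a short window and say nothing on which factor binds.

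Each value below is 1 probe set's log2 value, and levels of different genes are not compared, since probe sets differ in brightness. Of the 4 arrays, 2 stood apart in ways the labels do not explain. On the GN+Water-labelled array, the female-specific RNA Xist was at 8.97, against 5.02 to 5.21 on the other 3. The Y-linked Eif2s3y was at 3.43 on it against 8.02 to 8.29, and Uty at 4.27 against 6.30 to 6.34, so its sex-linked transcripts go against the male label. A further Y-linked gene, Kdm5d, was at 3.52 on it and 5.64 to 5.69 on the captopril arrays. Kdm5d was less clear on Saline+Water, where its 4.63 was also under the negative-control limit given below. On Saline+Water the 18 bacterial spike-in probe sets reached a median of 10.8 (7.46 to 7.89 elsewhere), and the array's correlation with the other arrays was 0.945 to 0.966, where those 3 correlated at 0.982 to 0.994. The proximal tubule, the source of many kidney P450s, was well represented, as 10 of 10 measured markers exceeded the negative controls on all 4 arrays. Of these 10, only Slc22a6 was 2-fold apart in a comparison, at 10.60 on the GN+Water-labelled array and 11.85 to 12.53 elsewhere.

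A value was called near the negative controls when it did not exceed the 90th percentile of 27 control probe sets with no mouse target, which was 4.81 on Saline+Water, 4.51 on Saline+Captopril, 4.37 on the GN+Water-labelled array and 4.36 on GN+Captopril. By this mark 45 members were above the limit on all 4 arrays, 7 on 1 to 3 arrays and 8 on none. The 8 were Cyp2b9, Cyp2b19, Cyp2c37, Cyp2c65, Cyp2d10, Cyp3a16, Cyp3a25 and Cyp3a44. Just inside the limit, Cyp2d10 stood at 4.15 to 4.72, and just outside it Cyp2b13 stood at 4.95 to 4.98. A comparison counts a gene when its values, with any value under the limit raised to it, differ at least 2-fold, and the share of all 12394 genes past the same line is given beside the first count in each comparison.

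Over the 4 arrays, 14 of 60 members (23.3%) spanned at least 2-fold, against 15.4% of all genes, and 36 spanned less than 1.5-fold. Cyp2j13, Cyp7b1, Cyp2e1, Cyp4b1, Cyp2d9 and Cyp2d12 were at least 2-fold lower on the GN+Water-labelled array than on any other array, which is 6 of 60 members (10.0%) against 0.533% of all genes. No member was 2-fold above the other 3 on that array, where 0.686% of all genes were. The Saline+Water array stood apart for Cyp21a1 and Cyp2d34, which were higher on it (1.83% of all genes), and for Cyp4a31, which was lower (3.65% of all genes). Saline+Captopril stood apart for Cyp3a11 alone, which was higher (0.00807% of all genes, or 1 gene), and 0 members were lower there (0.0323% of all genes). The other 4 of the 14, Cyp1b1, Cyp27b1, Cyp2d26 and Cyp4v3, spanned 2-fold with no single array apart. With no minimum gap, Saline+Water was the highest of the 4 arrays for 22 members (36.7%) and for 48.9% of all genes.

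**Figure D1:**
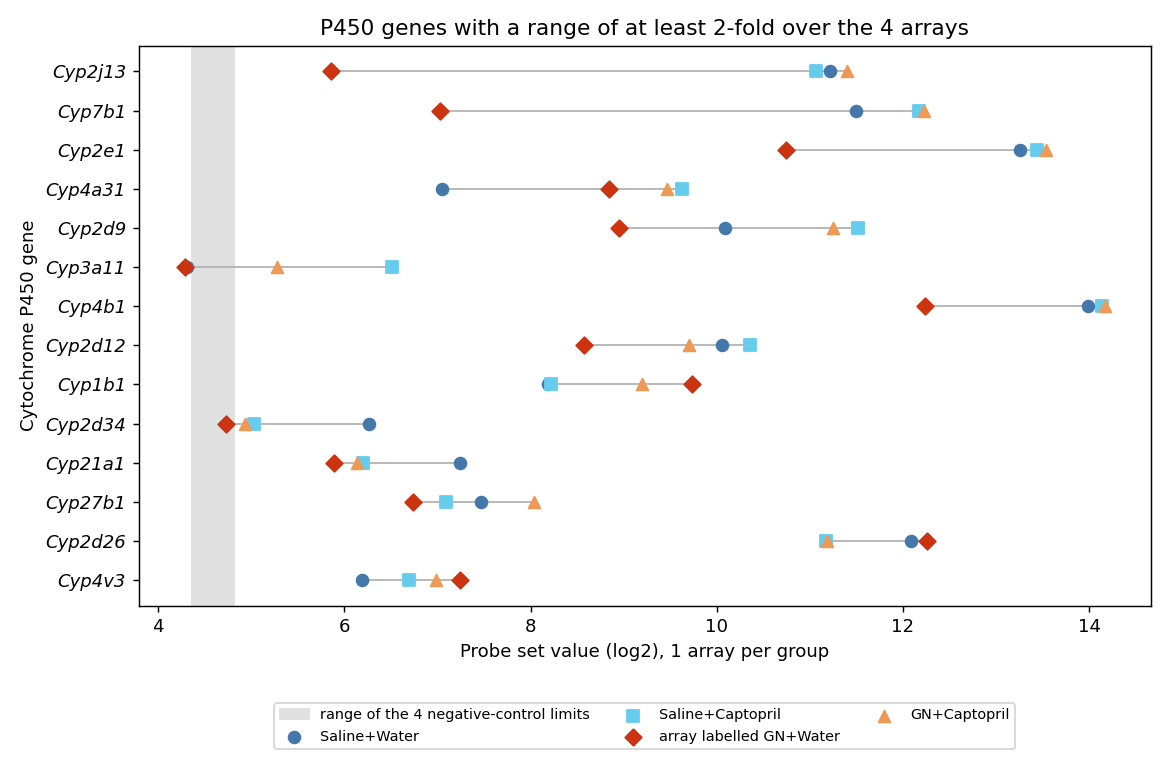
Log2 probe set values (x axis) of the 14 P450 genes that spanned at least 2-fold over the 4 arrays, 1 row per gene, 1 symbol per array, with the grey band marking the 4 negative-control limits, 4.36 to 4.81. The GN+Water-labelled array (red diamonds) lies far to the left for Cyp2j13, Cyp7b1, Cyp2e1 and Cyp4b1, with the other 3 symbols to its right.

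In the comparison of the GN+Water-labelled array with Saline+Water, which asks how GN kidneys differed in mice drinking water, 3 members were at least 2-fold higher (7.65% of all genes) and 8 of 60 lower (4.8% of all genes). The higher ones were Cyp4a31, Cyp1b1 and Cyp4v3, and the lower ones the 6 genes above with Cyp21a1 and Cyp2d34. The median measured difference over the 60 members was −0.15, against −0.093 over all genes. In GN+Captopril against the GN+Water-labelled array, which asks what captopril did in GN, 7 members were higher (0.96% of all genes), namely the same 6 and Cyp27b1, and Cyp2d26 was lower (0.952% of all genes). These first and second comparisons share the array with discordant sex markers. Saline+Captopril against Saline+Water asks how saline kidneys differed with captopril, and like the first comparison it uses the Saline+Water array that stood apart. In it Cyp2d9, Cyp3a11 and Cyp4a31 were higher (4.53% of all genes) and Cyp21a1 and Cyp2d34 lower (2.65% of all genes). With cyclic loess scaling the split was 3 higher and 1 lower. In GN+Captopril against Saline+Captopril, which uses neither array that stood apart, 0 members were 2-fold higher (0.597% of all genes) and Cyp3a11 was lower (0.0242% of all genes, or 3 genes).

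**Figure D2:**
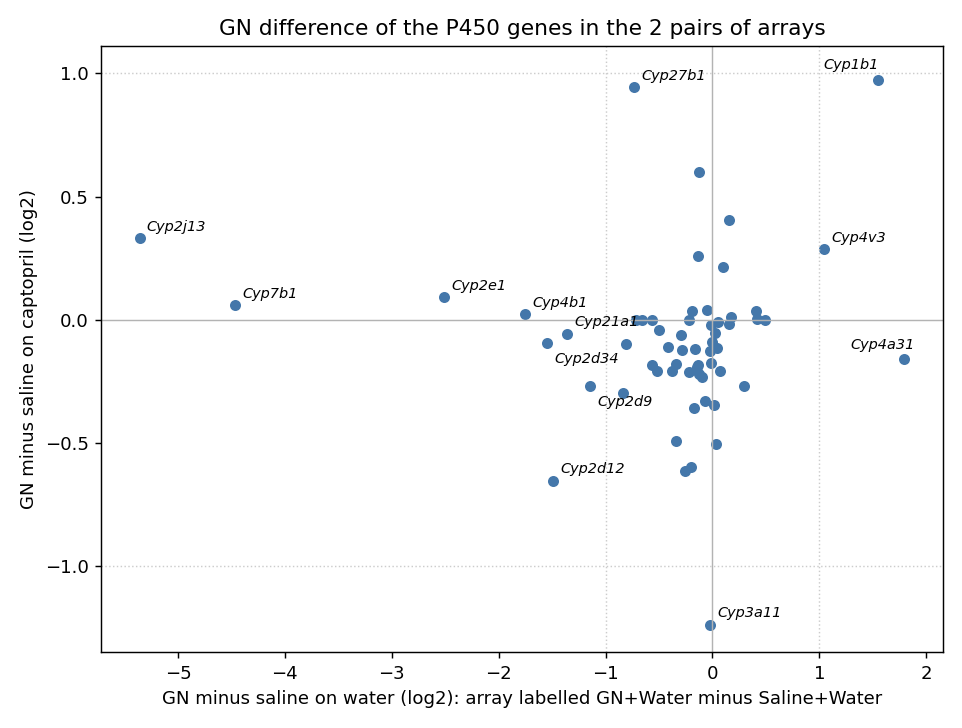
Measured log2 difference between GN and saline on water (x axis) and on captopril (y axis) for each of the 60 P450 genes, with dotted lines at 2-fold. The pairs share no array. Cyp2j13 and Cyp7b1 lie far to the left at −5.36 and −4.46 with differences near 0 on captopril, Cyp1b1 lies in the upper right and Cyp3a11 alone passes the lower line.

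The arachidonic acid epoxygenases and their relatives comprised 11 Cyp2c and 4 Cyp2j genes. Cyp2j13 stood at 11.22 on Saline+Water, 11.07 on Saline+Captopril, 5.86 on the GN+Water-labelled array and 11.40 on GN+Captopril. The other 3 arrays lay between 11.07 and 11.40, and the GN+Water-labelled array was 36.9-fold below the lowest of them. It was 41.0-fold below Saline+Water and 46.5-fold below GN+Captopril. Cyp2j5, the abundant epoxygenase of the mouse proximal tubule, stood at 12.81, 13.08, 12.84 and 13.03 in the same order, a span of 0.27. Its other probe set read 10.26, 11.31, 10.96 and 11.21, so the 2 probe sets differ most on Saline+Water. Cyp2j6 lay between 7.54 and 8.11, highest on Saline+Water, and Cyp2j9 lay between 5.58 and 6.35. The 4 Cyp2j genes lie within 1 cluster, with at most 10 protein-coding genes between neighbours, and by the brightest probe set of each gene Cyp2j13 was the only one of them past 2-fold in any of the 4 comparisons. The second Cyp2j5 probe set was 2.08-fold higher on Saline+Captopril than in the saline mice on water.

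Of the Cyp2c genes, 7 were above the negative controls on all arrays and 0 of 11 were 2-fold apart in any comparison. Cyp2c23, an epoxygenase of the kidney, stood at 9.37 on Saline+Water, 9.25 on Saline+Captopril, 9.66 on the GN+Water-labelled array and 8.98 on GN+Captopril, 1.60-fold lower on the last than on the third. Cyp2c50 stood at 5.51 on Saline+Captopril and 4.89 on GN+Captopril, a 1.53-fold difference. Cyp2c29, a liver enzyme, was above its limit on Saline+Captopril alone, with values of 4.14 to 4.48 on the other 3. The remaining Cyp2c38, Cyp2c39, Cyp2c54, Cyp2c55, Cyp2c68 and Cyp2c70 had levels between 4.47 and 6.55.

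Cyp7b1, an oxysterol hydroxylase that clears side-chain hydroxylated cholesterol and some steroids, stood at 11.50 on Saline+Water, 12.17 on Saline+Captopril, 7.03 on the GN+Water-labelled array and 12.23 on GN+Captopril. The labelled GN+Water value was 22.1-fold below Saline+Water and 36.7-fold below GN+Captopril. A second probe set of the gene read 10.72, 11.51, 6.47 and 11.55, with the same order of arrays. The other bile acid and oxysterol genes were not 2-fold apart in any comparison. Cyp39a1 lay between 6.40 and 6.82, Cyp8b1 between 5.71 and 6.25 and Cyp46a1, which hydroxylates cholesterol in the brain, between 5.31 and 6.24. Cyp7a1, the rate-limiting enzyme of bile acid synthesis in liver, lay between 4.55 and 5.11, only a little over the negative controls. Cyp8b1, Cyp46a1 and Cyp7a1 were each highest on Saline+Water, as were 48.9% of all genes, and the negative controls were also highest there.

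Among the xenobiotic enzymes, Cyp2e1, which oxidises ethanol and paracetamol, stood at 13.25 on Saline+Water, 13.44 on Saline+Captopril, 10.75 on the GN+Water-labelled array and 13.53 on GN+Captopril. This was 5.69-fold below Saline+Water and 6.91-fold below GN+Captopril, and the other 3 arrays lay between 13.25 and 13.53. Cyp2d9, known as a male-enriched steroid hydroxylase of mouse liver, stood at 10.09, 11.51, 8.95 and 11.24 in that order. It was 4.91-fold higher on GN+Captopril than on the GN+Water-labelled array and 2.68-fold higher with captopril in the saline pair, so both captopril arrays lay above both water arrays. The Cyp2d9 probe set is of a type designed to match several transcripts, and the part of close relatives in it was not tested. Cyp2d12 stood at 10.06, 10.36, 8.57 and 9.70, which is 2.80-fold lower on the third array than on Saline+Water and 1.57-fold lower on GN+Captopril than on Saline+Captopril.

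Cyp2d26 did not follow its neighbours in the same cluster: it stood at 12.08 on Saline+Water and 12.26 on the GN+Water-labelled array, against 11.18 on Saline+Captopril and 11.19 on GN+Captopril. It was 1.88-fold lower with captopril in saline mice and 2.10-fold lower in GN mice. Cyp2d34 reached 6.27 on Saline+Water, while the other 3 arrays gave 4.73 to 5.03, close to their limits of 4.36 to 4.51. Cyp2d22 lay between 7.31 and 7.71 and Cyp2d13 between 5.31 and 5.64. Within the Cyp2d subfamily, then, 4 of 7 members spanned 2-fold, where 15.4% of all genes did, and the low or high arrays were not the same for the 4.

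Some androgen-responsive transcripts, like the sex-linked ones, stood apart on the same array as the 6 low P450 genes, and others did not. Of 13 measured kidney genes outside the P450 family that are known to respond to androgen or to differ by sex, 5 were at least 2-fold lower on the GN+Water-labelled array than on Saline+Water (4.8% of all genes) and 2 higher (7.65% of all genes). Acsm3 was 77.3-fold lower, at 12.47 to 12.57 on the other 3 arrays, and Slco1a1 was at 4.96 against 10.32 to 10.62. The 2 higher genes stood apart on the same array, Slc7a12 at 12.51 against 7.21 to 8.38 and Akr1c18 at 10.88 against 8.23 to 8.54. The remaining 6, Kap, Odc1, Gusb, Slc22a7, Acsm2 and Hsd11b1, differed by less than 2-fold in that comparison. Kap, an androgen-regulated protein of the proximal tubule, lay between 14.38 and 14.62 on the 4 arrays. Cyp4a12a, an androgen-dependent fatty acid hydroxylase whose symbol falls outside the rule, was at 7.48 against 11.15 to 11.59. Of the other P450 genes outside the rule, Cyp51, Ptgis and Tbxas1 were not 2-fold apart in any comparison. With 1 array per group, the GN+Water treatment and whatever else set this array apart cannot be told apart. On the array of the other GN group, GN+Captopril, the values of Cyp2j13, Cyp7b1, Cyp2e1 and Cyp4b1 were within 0.33 of those on Saline+Captopril. Cyp2d9 was 1.20-fold and Cyp2d12 1.57-fold lower there than on Saline+Captopril.

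**Figure D3:**
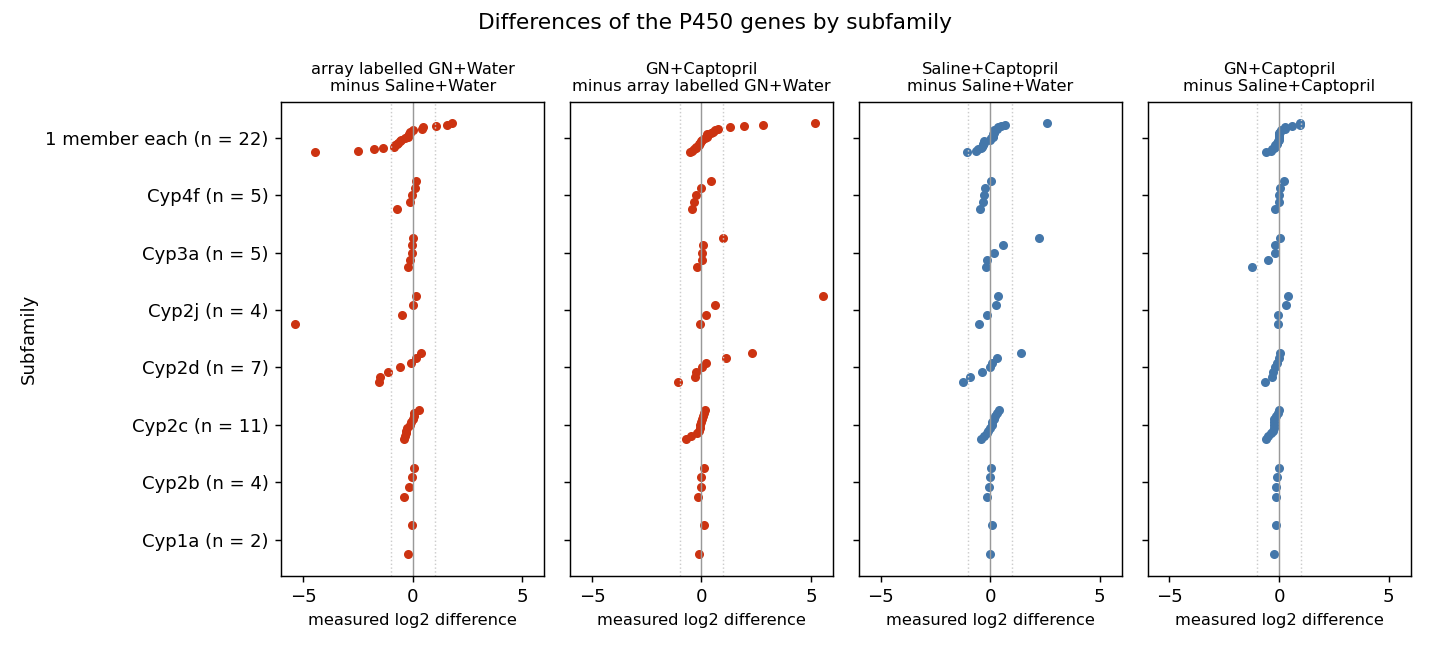
Measured log2 differences (x axis) of the P450 genes in the 4 comparisons, 1 point per gene, by subfamily (rows), with the 22 single-member subfamilies pooled in the top row and dotted lines at 2-fold. Red panels use the GN+Water-labelled array and hold the widest points, from −5.36 to 5.54, while the last panel runs from −1.24 to 0.97.

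Fatty acid hydroxylases of family 4 include Cyp4b1, an enzyme of the mouse proximal tubule known for activating the toxin 4-ipomeanol. Cyp4b1 stood at 13.99 on Saline+Water, 14.14 on Saline+Captopril, 12.24 on the GN+Water-labelled array and 14.17 on GN+Captopril. The third array was 3.37-fold below Saline+Water and 3.81-fold below GN+Captopril, and the other arrays lay between 13.99 and 14.17. Cyp4a31, a close relative of the PPAR-alpha target Cyp4a14, stood at 7.05, 9.63, 8.84 and 9.47. Saline+Water was the low array: relative to it Cyp4a31 was 6.00-fold higher on Saline+Captopril and 3.47-fold higher on the GN+Water-labelled array, but relative to Saline+Captopril it was lower on the GN+Water-labelled array, by 0.79 on the log2 scale. The neighbouring Cyp4a14 was likewise lowest on Saline+Water at 8.33, and stood at 10.74, 11.48 and 9.85 on the others. A probe set that matches both Cyp4a31 and Cyp4a10 spanned only 12.33 to 12.90.

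Cyp4v3, the mouse counterpart of the human lipid hydroxylase gene CYP4V2, stood at 6.19 on Saline+Water, 6.70 on Saline+Captopril, 7.24 on the GN+Water-labelled array and 6.98 on GN+Captopril. Its difference was 2.06-fold between the GN and saline arrays on water and 1.22-fold on captopril. A lower second probe set gave the same order of arrays, from 4.84 to 5.57, and was 1.65-fold apart on water. The difference on water was under 2-fold after median centring (0.99 on the log2 scale) and with the probe sets averaged (0.88). The 5 Cyp4f genes, which inactivate leukotrienes and other lipids, were not 2-fold apart in any comparison. Cyp4f13 showed the widest span of the 5, from 7.99 on the GN+Water-labelled array to 8.70 on Saline+Water. Cyp4f14, Cyp4f16 and Cyp4f18 lay between 5.23 and 6.80, and Cyp4f15 lay between 4.53 and 4.72, under the limit on Saline+Water. Cyp2s1, an epithelial enzyme, lay between 7.67 and 8.16.

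Cyp1b1, which oxidises oestrogen and aromatic hydrocarbons and is found in stromal and vascular cells, was higher on both GN arrays. It stood at 8.19 on Saline+Water, 8.22 on Saline+Captopril, 9.73 on the GN+Water-labelled array and 9.20 on GN+Captopril. The GN difference was 2.92-fold on water and 1.96-fold on captopril, and the lower GN array exceeded the higher saline array 1.96-fold. No other member separated both GN arrays from both saline arrays by 1.5-fold, a separation seen upward in 0.976% of all genes and downward in 0.00807% (0 members). A second probe set of Cyp1b1 read 5.95, 6.15, 7.52 and 6.86, in the same order, while the other read 4.84, 4.14, 4.06 and 3.87, under the limit on all arrays but Saline+Water. With the 3 averaged, the difference on water was 0.78 on the log2 scale, under 2-fold. All 8 measured macrophage markers were higher on both GN arrays than on both saline arrays. Of the 8, 7 were at least 2-fold higher in each GN pair, against 7.65% of all genes on water and 0.597% on captopril. The log2 summed level of the macrophage markers was 11.71 and 11.75 on the saline arrays, 14.11 on the GN+Water-labelled array and 13.36 on GN+Captopril. Adipoq and Fabp4 of 4 adipocyte markers and Pecam1 of 6 podocyte and endothelial markers were also higher on both GN arrays. So were Aqp2 of 7 loop, distal tubule and collecting duct markers and Scarb1 of 8 adrenal markers, but 0 of 10 proximal tubule markers. These marker counts set no minimum gap, unlike the 1.5-fold separation used for the members. Aqp2 was at 10.30 on GN+Captopril against 10.27 on Saline+Captopril, and Scarb1 at 7.73 on both GN arrays against 7.67 on Saline+Water. The part of these cell types in the Cyp1b1 difference was not tested. Of the aryl hydrocarbon receptor pathway that controls Cyp1 genes, the receptor gene Ahr was lowest on Saline+Water at 5.27, with 6.01 to 6.50 elsewhere. The receptor's liver target Cyp1a2 lay between 5.15 and 5.46, and Cyp1a1 between 4.63 and 4.75.

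Cyp3a11, the main drug-oxidising Cyp3a enzyme of mouse liver, was above the negative controls on the captopril arrays only. It stood at 4.31 on Saline+Water, 6.51 on Saline+Captopril, 4.28 on the GN+Water-labelled array and 5.27 on GN+Captopril. Saline+Captopril was at least 3.26-fold above Saline+Water, GN+Captopril at least 1.87-fold above the GN+Water-labelled array, and GN+Captopril 2.36-fold below Saline+Captopril, where both were measured. Of 7 measured hepatocyte markers, Alb, Apoa1, Apoa2 and Cps1 were also higher on both captopril arrays than on both water arrays, with no minimum gap set. Albumin (Alb) stood at 7.48, 9.34, 8.08 and 9.09, and Apoa1 at 6.64, 7.49, 6.55 and 7.19. The separation was slight for Apoa2, at 7.69, 8.23, 7.56 and 7.72, and for Cps1, at 5.26, 5.49, 5.28 and 5.42. Fgb, a fibrinogen chain, went the opposite way, at 7.05, 5.93, 6.98 and 5.62, so both captopril arrays lay below both water arrays, 2.16-fold in saline mice and 2.55-fold in GN mice. Ttr and Ahsg separated the captopril arrays from the water arrays in neither direction, and the summed log2 level of the 7, which Ttr dominates, was 13.14, 12.72, 12.31 and 12.64. The part of liver-type RNA in the Cyp3a11 difference was not tested. The other Cyp3a genes were at or near the negative controls, with Cyp3a13 between 4.39 and 4.58.

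**Figure D4:**
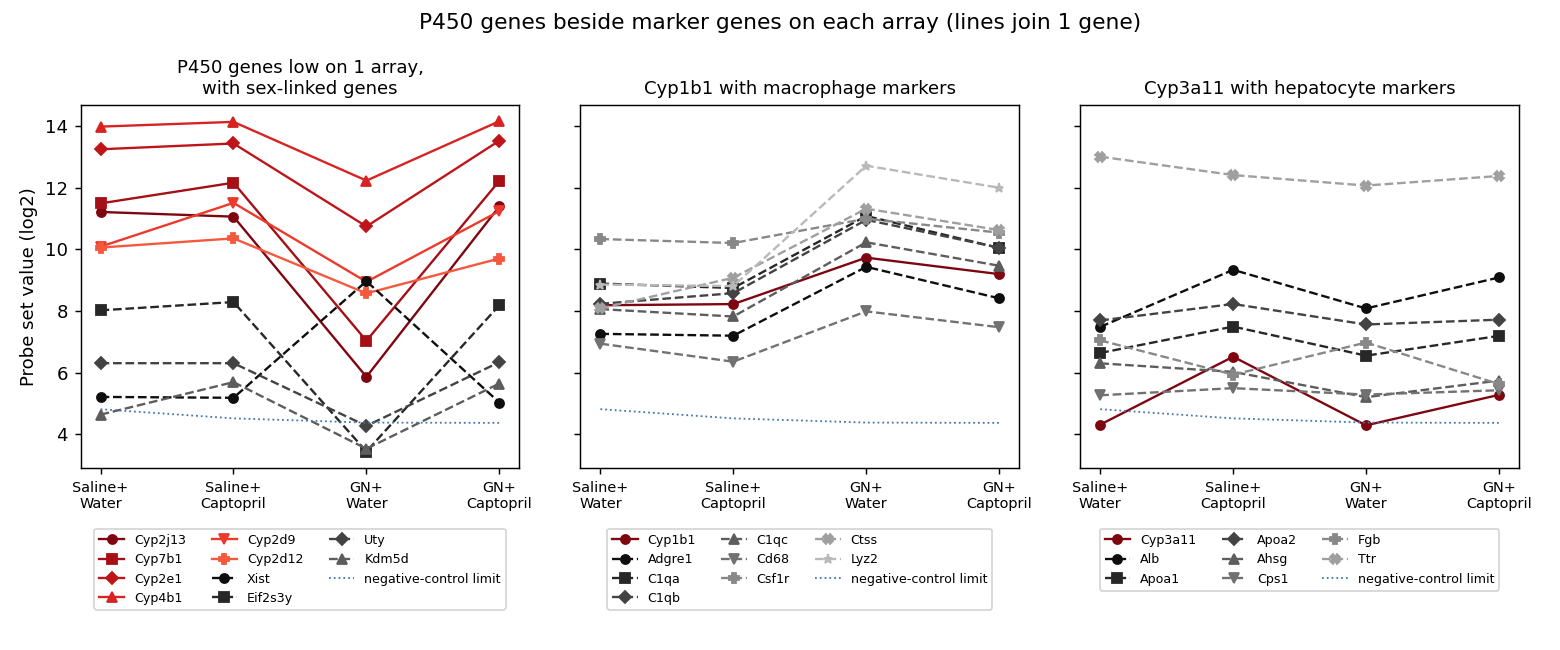
Log2 probe set values (y axis) on the 4 arrays (x axis), with lines joining 1 gene: the 6 P450 genes low on the GN+Water-labelled array with Xist and 3 Y-linked genes (left), Cyp1b1 with 8 macrophage markers (middle) and Cyp3a11 with 7 hepatocyte markers (right). The dotted line is the negative-control limit of each array. Eif2s3y is at 3.43 on the array where Xist reaches 8.97, and Cyp3a11 is above the limit on both captopril arrays only.

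Both captopril arrays lay above both water arrays by at least 1.5-fold for 3 members, Cyp2d9, Cyp4a31 and Cyp7b1, or 5.0% against 0.347% of all genes. They lay below for Cyp2d26 alone, against 0.105% of all genes. Cyp3a11 was also higher on both captopril arrays, but was not counted because its Saline+Water value of 4.31 was raised to the limit of 4.81. Its GN+Captopril value was 5.27. The water side of this contrast consists of the 2 arrays that stood apart in controls or sex markers. For Cyp2d9 the gap between the nearest arrays was 2.22-fold, for Cyp7b1 1.59-fold and for Cyp4a31 1.55-fold, while Cyp2d26 was separated by 1.86-fold.

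Vitamin D is activated in the proximal tubule by the product of Cyp27b1 and degraded by that of Cyp24a1. Cyp27b1 stood at 7.47 on Saline+Water, 7.09 on Saline+Captopril, 6.74 on the GN+Water-labelled array and 8.03 on GN+Captopril. It was 1.66-fold lower in GN than in saline on water, 1.93-fold higher on captopril, and 2.45-fold higher on GN+Captopril than on the GN+Water-labelled array. Cyp24a1 stood at 9.60, 9.97, 9.46 and 10.23, but its second probe set was 3.48-fold lower on the GN+Water-labelled array than on Saline+Water, where the first was 1.10-fold lower, and it was highest on Saline+Water at 9.80, so the 2 disagree on the order of the arrays and no direction is given for water. On GN+Captopril the first was 1.20-fold and the second 1.25-fold above Saline+Captopril. Cyp27a1, a mitochondrial sterol hydroxylase, was highest on Saline+Water at 9.66 and stood at 9.00 to 9.23 on the others. Vdr, the vitamin D receptor, was at 10.92 on Saline+Water, 10.18 on Saline+Captopril, 9.83 on the GN+Water-labelled array and 10.21 on GN+Captopril.

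Of 12 measured vitamin D and retinoid partner genes, 3 exceeded their Saline+Water value at least 2-fold on the GN+Water-labelled array (7.65% of all genes). In the same comparison 2 fell short by as much (4.8% of all genes). Between the GN and saline arrays on captopril 0 were 2-fold apart (0.597% of all genes higher, 0.0242% lower). Aldh1a2, which makes retinoic acid, was at 5.67 on Saline+Water, 6.76 on Saline+Captopril, 8.13 on the GN+Water-labelled array and 7.16 on GN+Captopril, so both GN arrays lay above both saline arrays. Cyp26a1, which degrades retinoic acid, stood at 6.07, 6.04, 5.87 and 5.44 in that order and was 1.51-fold lower on GN+Captopril than on Saline+Captopril. Aldh1a1, Rara and Rarb differed mainly on Saline+Water: Aldh1a1 was at 6.87 there and 8.36 to 8.58 elsewhere.

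Steroid hormone synthesis genes mark the adrenal gland, which lies on the kidney. Cyp21a1, a hydroxylase of corticosteroid synthesis in the adrenal cortex, was at 7.24 on Saline+Water, 2.07-fold above Saline+Captopril and 2.56-fold above the GN+Water-labelled array. Its second probe set read 6.03 on Saline+Water and 5.24 to 5.72 on the others. Cyp11a1, which starts steroid synthesis from cholesterol, stood at 5.05, 4.78, 4.92 and 5.38 and was 1.51-fold higher on GN+Captopril than on Saline+Captopril. Hsd3b1, an adrenal marker in the same pathway, was at 7.39 on GN+Captopril and 5.83 to 6.01 on the others, the only one of 8 measured adrenal markers past 2-fold, and its link to Cyp11a1 was not tested. Cyp11b2, the aldosterone synthase, lay between 4.76 and 5.56, highest on Saline+Water, and Cyp17a1 lay between 5.10 and 5.56.

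The remaining drug-metabolising members showed little spread. Cyp2a12 lay between 6.47 and 6.61, Cyp2b10, the phenobarbital-inducible enzyme, between 6.64 and 6.82, and Cyp2f2, the enzyme of airway club cells, between 6.60 and 7.15. Cyp2g1, known from olfactory epithelium, lay between 4.51 and 4.87. None of these was 2-fold apart in any of the 4 comparisons.

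The P450s depend on other proteins for electrons, haem and regulation. Of 8 measured electron donors, haem enzymes and related genes, 0 were 2-fold apart in any comparison. Cyb5a, the cytochrome b5 that donates electrons to some P450s, was at 12.57 on the GN+Water-labelled array and 12.85 to 13.14 elsewhere. Fdx1, the ferredoxin of the mitochondrial P450s, lay between 11.20 and 11.61. Of 18 measured receptors and factors known to control P450 genes, 1 was 2-fold higher and 4 lower on the GN+Water-labelled array than on Saline+Water. Of all genes, 7.65% were higher and 4.8% lower in that comparison. The 4 were Rxra, Vdr, Nr1h4 and Bcl6, and Ahr was the higher one. Rxra, Vdr and Nr1h4 were highest on Saline+Water and differed by 1.26-fold or less between the captopril arrays. Bcl6, a repressor known to differ by sex in mouse liver, stood at 8.33, 8.83, 7.10 and 7.66, and was 2.25-fold lower on GN+Captopril than on Saline+Captopril. Ephx2, the soluble epoxide hydrolase that breaks down the epoxygenase products, was at 10.51 on the GN+Water-labelled array and 11.84 to 11.97 elsewhere. In the same list of 8 measured eicosanoid enzymes, 3 were at least 2-fold higher on the GN+Water-labelled array than on Saline+Water (7.65% of all genes). They were Ephx1, Hpgd and Pla2g4a, at 2.01-fold, 2.99-fold and 2.74-fold. All 3 were lowest on Saline+Water, the array that stood apart, at 8.43, 7.55 and 6.01. Between the GN and saline arrays on captopril, 0 of the 8 were 2-fold apart (0.597% of all genes higher, 0.0242% lower).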

How the data were processed

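Whole-kidney RNA was labelled from 6 µg and hybridised to 4 Affymetrix arrays, 1 per group, per the labels' protocols. Each array has 22690 probe sets, and the values the authors deposited span a log2 scale. GCOS and RMA appear in the submitters' processing notes. Versions, background correction and build: not given in the sources used here. In the deposited values 16.8% of probe sets, and 11 of the 60 members, have exactly the same value on 2 or more arrays, so an equal value is no precise measure of no difference.

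Platform symbols were brought up to date by Entrez ID with a GRCm38.p6 gene table, which named 20364 probe sets. 1 symbol was found for 20393, several for 691 and none for 1606. Singly named probe sets entered, and the brightest on average stood for each gene, unfiltered. Platform annotation can be old, and probe sets of close P450 relatives may share signal. The cluster neighbours were read from the order of genes in the same table.

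Differences are between 2 arrays, with 0 residual degrees of freedom, so no test or error was possible. For counts and folds, values under an array's negative-control limit were raised to it, and such a fold is written as at least. Medians use values as measured. Named members were the 20 with the widest span, the brightest of each subfamily, those 2-fold apart on captopril, and the vitamin D, retinoic acid, steroid and bile acid genes. The others appear by range. The members, lists, rules and alternatives were chosen with earlier results of these data known. The 1.5-fold separation of both arrays of a treatment was added after the values were seen. The alternatives were other scalings, probe set choices, filters, thresholds, floors, symbols and baseline arrays. The counting code was tested on simulated data. R 4.3.3 with limma 3.58.1, Python 3.11.15 and pandas 2.3.3 were used.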

Additional observations from a re-analysis of the deposited data

Results flagged for a closer look

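Cyp27b1 differed in opposite directions in the 2 GN pairs: its GN minus saline difference was −0.73 on water and 0.95 on captopril (log2). The difference between the pairs was not tested, since each has 1 array per group, and the water pair consists of the 2 arrays that stood apart.

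A probe set outside the members, because it matches both Cyp2a5 and Cyp2a4, spanned 1.08 on the log2 scale over the arrays. It stood at 12.38 on Saline+Water, 12.72 on Saline+Captopril, 11.64 on the GN+Water-labelled array and 12.64 on GN+Captopril, so the lowest value fell on the same array as for the 6 low members.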

How the results depend on the processing

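No paired analysis was possible because each group has 1 array and the labels give no replicate numbers. Of 124 recomputed counts and medians over the members, 112 stayed within the tolerances (1.5 times for a count, 0.1 for a median on the log2 scale) and 12 moved. The median for the GN+Water-labelled array against Saline+Water was −0.15 as reported, −0.033 after quantile normalisation and 0.037 after cyclic loess, and cyclic loess moved that of Saline+Captopril against Saline+Water from 0.0035 to 0.13. The median of all genes in the first comparison was −0.093 as deposited, −0.15 after median centring and 0.0018 after cyclic loess. A filter at the 40th percentile of expression left 26 members. It gave 3 members 2-fold apart between Saline+Captopril and Saline+Water in place of 5, with a median of 0.11. It gave 0 between the GN and saline arrays on captopril in place of 1, 0 with Saline+Captopril apart in place of 1, and a median of 0.21 in place of 0.013 between GN+Captopril and the GN+Water-labelled array. A 1.5-fold threshold gave 13 members in that comparison in place of 8, 8 in place of 5 for captopril in saline mice, and 7 in place of 1 for GN on captopril. With GN+Captopril in place of the GN+Water-labelled array, 5 members were 2-fold apart from Saline+Water in place of 11, and none of the 6 low members was lower. Of these 5, 3 were higher (5.58% of all genes) and 2 lower (3.45% of all genes). For the GN+Water-labelled array against Saline+Water, the 3 higher members became 2 after median centring and 1 with probe sets averaged, while 8 stayed the lower count in both. With Saline+Captopril as the baseline, 2 were higher (2.08% of all genes) and 7 lower (0.823% of all genes), and Cyp4a31 reversed to −0.79. The count of members low on the GN+Water-labelled array was 6 as reported, and 5 to 7 over the alternatives; it was 5 without shared probe sets, which drops Cyp2d9. Of 702 recomputed differences of single named genes, 10 moved by over 1.5-fold and 1 reversed. Signal over the negative controls limits what can be said of the 7 members under the limit on some arrays and the 8 under it on all, and with 1 array a group no value has a known precision.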
